A study of Mus musculus with 10 samples.

Results

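The small proline-rich protein (Sprr) genes encode short proteins that transglutaminases cross-link into the cornified envelope, the tough layer under the membrane of terminally differentiated squamous cells. They stand next to each other in the epidermal differentiation complex and are best known from skin, oral epithelium and other stratified or injured epithelia. The mammary ducts are lined instead by an inner luminal and an outer basal layer, which do not cornify. The 9 genes described are Sprr1a, Sprr1b, Sprr2a1, Sprr2a2, Sprr2a3, Sprr2b, Sprr2d, Sprr2h and Sprr3, taken by name from the 55487 genes of the count tables. They were chosen by name after the genotype difference of Sprr counts in mammary epithelial cells (MECs) was known, so their values in that comparison are given as a description, without a test.

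The study asked how C/EBPβ in macrophages affects the mammary gland. Glands came from 10-wk-old diestrus female mice on a BALB/c background, all carrying floxed Cebpb alleles (Cebpb fl/fl). In CebpbΔM mice the Csf1r-iCre transgene deletes Cebpb in Csf1r-expressing myeloid cells, whereas the Csf1r-Cre neg; Cebpb fl/fl mice served as WT. MECs were purified by negative selection (WT replicates 1 and 3 and CebpbΔM replicates 1 and 3), and macrophages by positive selection for F4/80 (WT replicates 4 and 5 and CebpbΔM replicates 4 to 7). GEO's labels call the CebpbΔM genotype a C/EBPb knockdown. They do not say whether the replicates came from separate animals, so P-values measure the spread between these libraries.

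The total count per library was between 25310926 and 27008166 in MECs and between 16935000 and 20174722 in macrophages. Levels are CPM, the count of a gene per 1000000 counts of its library, scaled by the trimmed mean of M-values (TMM) and given with the SD over libraries. The floor of detection was set at 3 counts per library. Cebpb itself stood at 0.683 ± 0.0439 CPM in WT macrophages (n = 2) and at 0.490 ± 0.281 CPM in CebpbΔM macrophages (n = 4). The counts were 13 and 15 in WT and 16, 13, 5 and 4 in CebpbΔM, so the genotypes overlapped and Cebpb did not separate them. The study describes Cebpb as highly expressed in Csf1r+ cells of its single-cell data. The cause of the low counts here was not tested. Since the Cre acts in myeloid cells, Cebpb in MECs does not check the genotype. The 10 macrophage markers summed to 8272 CPM or more in each macrophage library and to between 33.3 and 43.9 CPM in the MEC libraries. The 10 pan-epithelial markers, such as Epcam and the keratins Krt8 and Krt18, summed to between 30975 and 38506 CPM in MECs. In macrophages they still summed to 10430 and 10309 CPM in WT and to between 5520 and 7015 CPM in CebpbΔM, with 10 of 10 above 1 CPM in each library. The macrophage libraries therefore held epithelial transcripts, and the WT sums lay above the CebpbΔM sums. By edgeR's quasi-likelihood (QL) test 0 of the 10 markers passed between the genotypes, with 5 at an unadjusted P under 0.05, and the likelihood ratio test and DESeq2 each called Krt8 and Krt18 lower in CebpbΔM. Basal markers summed to 1365 and 1008 CPM in WT macrophages and to 3326, 2124, 2152 and 875 in CebpbΔM macrophages, with 9 of 10 fitted log2 fold changes above 0. Macrophage markers summed to 8272 and 9340 CPM in WT and to between 10768 and 15997 in CebpbΔM, with 10 of 10 above 0. The QL test called 0 of 10 in both lists, with 1 and 6 at an unadjusted P under 0.05. The likelihood ratio test called the macrophage marker C1qc higher in CebpbΔM, and DESeq2 C1qa and C1qc. The part of these differences in the macrophage values of the Sprr genes was not tested. In bulk RNA, fewer cells of a type and less RNA per cell cannot be told apart.

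The coding sequences show what the family is named for and why its counts cannot be split evenly. The coding strands of Sprr1a (its first 300 bases), Sprr2a3 and Sprr2f are printed in lower case with the CCN codons, which encode proline, in capitals. Sprr2f is not among the 9 genes and is shown because it was the other Sprr2 gene with counts to speak of.
Sprr1a: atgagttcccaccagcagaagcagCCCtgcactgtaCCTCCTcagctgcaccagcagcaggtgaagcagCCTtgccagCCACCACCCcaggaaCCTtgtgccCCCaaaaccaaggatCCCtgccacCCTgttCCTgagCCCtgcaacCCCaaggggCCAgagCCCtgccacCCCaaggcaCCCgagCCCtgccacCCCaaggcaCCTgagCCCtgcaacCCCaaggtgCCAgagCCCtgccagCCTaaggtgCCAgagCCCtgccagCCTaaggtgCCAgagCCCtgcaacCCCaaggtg
Sprr2a3: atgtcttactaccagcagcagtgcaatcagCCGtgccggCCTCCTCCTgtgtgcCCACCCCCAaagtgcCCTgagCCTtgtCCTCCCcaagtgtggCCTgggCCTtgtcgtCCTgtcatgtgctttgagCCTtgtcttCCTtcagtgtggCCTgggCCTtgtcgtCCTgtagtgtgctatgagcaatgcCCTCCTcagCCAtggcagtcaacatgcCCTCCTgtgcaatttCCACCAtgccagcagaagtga
Sprr2f: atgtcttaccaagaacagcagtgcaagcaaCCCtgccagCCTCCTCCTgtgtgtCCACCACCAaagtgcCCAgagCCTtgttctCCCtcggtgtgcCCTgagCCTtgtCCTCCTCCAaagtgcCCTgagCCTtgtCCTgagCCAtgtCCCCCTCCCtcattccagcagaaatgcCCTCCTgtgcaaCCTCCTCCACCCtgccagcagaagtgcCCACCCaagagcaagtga

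These sequences are from the GENCODE release M21 transcripts on GRCm38. The coding part of Sprr1a lies on the minus strand at chr3:92484258-92484692, that of Sprr2a3 on the plus strand at chr3:92288588-92288839, and that of Sprr2f on the plus strand at chr3:92365896-92366126. CCN codons made up 31.9% of the 144 codons of Sprr1a, 31.3% of the 83 codons of Sprr2a3 and 39.5% of the 76 codons of Sprr2f. Among the 9 genes their share ran from 20.6% in Sprr3 to 42.6% in Sprr2h. The 17 Sprr genes of the count tables span chr3:92215799-92500493, with the Sprr2 genes on the plus strand and Sprr1a, Sprr1b, Sprr3 and Sprr4 on the minus strand.

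Sprr2a1, Sprr2a2 and Sprr2a3 are near copies. Their coding sequences are each 252 bases with the stop codon, and those of Sprr2a1 and Sprr2a2 differ at 0 positions. Sprr2a3 differs from Sprr2a1 at 3 positions, G63A, G159T and A192T, with Sprr2a1's base first and positions counted from 1 at the A of the start codon. All 3 fall on the last base of a CCN codon, which encodes proline in both genes. The authors kept read pairs with a mapping quality of at least 10, which removes most pairs that fit equally well at more than 1 place. Of the distinct 150-nt windows in each gene's transcripts, the length of 1 read, 89.6% in Sprr2a1 and 89% in Sprr2a2 were also found in another Sprr gene. In Sprr2a3 the share was 19%, and in the other 6 genes it was 0%. In addition, 43 bases of exon at chr3:92215920-92215962 belong to both Sprr2a1 and Sprr2a2 on the same strand. Counts on Sprr2a1 and Sprr2a2 therefore bear on the small part of each transcript that is its own, and the split of reads between the 3 copies is uncertain.

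**Figure D1:**
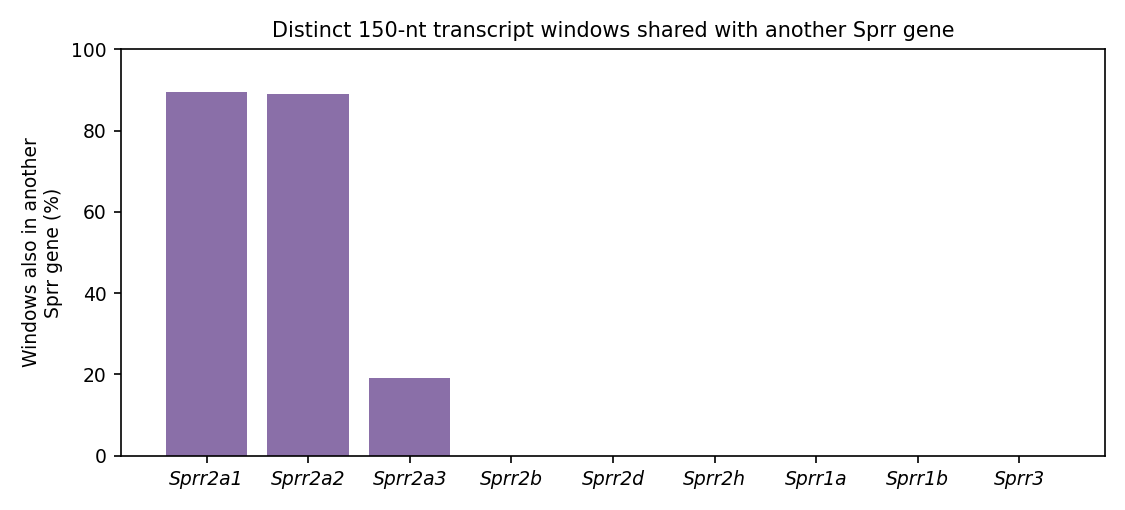
Percent of the distinct 150-nt windows in each gene's GENCODE transcripts that also occur in a transcript of another Sprr gene, for the 9 genes. The bars of Sprr2a1 and Sprr2a2 stand at 89.6% and 89%, that of Sprr2a3 at 19%, and the other 6 genes have no shared window.

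The sequences searched before the RefSeq transcription start divide the family in another way. RefSeq promoter windows on GRCm38.p6 matched 14 of the 17 Sprr genes by symbol, and the 250 bases before each start were searched on both strands for 5 motifs. The windows of Sprr1a, Sprr2f and Sprr2a3, the 3 genes whose levels are described most fully, are printed with motif matches in capitals. The capitals mark the AP-1 motif TGANTCA, the octamer ATTTGCAT and the start-proximal box TATAAA. Bases inside an annotated exon are left out.
Sprr1a: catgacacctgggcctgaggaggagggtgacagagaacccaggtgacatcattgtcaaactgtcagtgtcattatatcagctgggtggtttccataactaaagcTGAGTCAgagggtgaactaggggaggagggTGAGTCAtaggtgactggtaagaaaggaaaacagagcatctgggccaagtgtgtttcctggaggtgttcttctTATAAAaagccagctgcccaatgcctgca
Sprr2f: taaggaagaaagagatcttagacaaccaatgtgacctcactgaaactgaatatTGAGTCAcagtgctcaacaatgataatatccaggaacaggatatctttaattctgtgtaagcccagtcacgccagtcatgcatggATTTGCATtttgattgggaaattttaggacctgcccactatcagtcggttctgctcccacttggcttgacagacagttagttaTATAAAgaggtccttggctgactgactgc
Sprr2a3: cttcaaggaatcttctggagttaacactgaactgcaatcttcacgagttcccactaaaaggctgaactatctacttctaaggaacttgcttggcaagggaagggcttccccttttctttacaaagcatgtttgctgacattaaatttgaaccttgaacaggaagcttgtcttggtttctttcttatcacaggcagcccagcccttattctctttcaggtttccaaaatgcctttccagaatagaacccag

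These windows are chr3:92485896-92486131 on the minus strand, chr3:92364937-92365186 on the plus strand and chr3:92285054-92285303 on the plus strand. TGANTCA was found in 9 of the 14 Sprr windows and in 6.75% of 32851 RefSeq windows of the same length. ATTTGCAT was found in 7 of 14 and in 1.6% of all, and TATAAA in 10 of 14 and in 12.4% of all. Sprr2b, Sprr2d, Sprr2e, Sprr2f, Sprr2h, Sprr2i and Sprr2k held all 3 motifs. Sprr2a1, Sprr2a2 and Sprr2a3 held none of them, and their RefSeq starts lie 36, 100 and 113 bases from the nearest GENCODE start. In Sprr2a2 and Sprr2a3 that GENCODE start lies downstream, and the bases between the RefSeq and GENCODE starts were not searched. The lack of matches therefore holds for these windows only and may depend on where they were placed. The 300-base windows of Sprr2a1 and Sprr2a2 were identical, and after a shift of 28 bases the window of Sprr2a3 equalled that of Sprr2a1 in 272 of 272 bases. The C/EBP motif TTNCNNAA was found in 12 of 14 Sprr windows and in 36.8% of all windows. The STAT motif TTCNNNGAA was found in the window of Sprr2a3 and in 7.02% of all. That match lies 241 to 249 bases before the start, near the far end, and with the shift of 28 bases the matching stretch of Sprr2a1 and Sprr2a2 falls outside their windows, so the copies cannot be compared there. No match of the printed windows overlapped one of another motif. A match describes the letters only and is not a site.

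Nearly all counts of the family lay on 2 genes. Of 29341 counts summed over the 9 genes and 10 libraries, 80.7% were on Sprr1a, 18.4% on Sprr2a3 and 0.627% on Sprr2a1. The other 6 genes together had 71 counts, or 0.242%. Sprr1a and Sprr2a3 were the 2 genes above 3 counts in every library. Sprr2d and Sprr3, the latter a large Sprr protein of oral and esophageal epithelium, had 0 counts in all 10. A count of 0 allows up to 3 counts, which is between 0.111 and 0.177 CPM of a library's total, and these limits cover counting error only.

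Sprr1a, a cross-linked envelope precursor that is also known as a response gene in injured tissue, was the most abundant member in MECs. Its counts were 5437 and 4039 in WT MECs and 7599 and 4028 in CebpbΔM MECs. In macrophages they were 476 and 355 in WT and 387, 840, 226 and 296 in CebpbΔM. Each MEC library was above each macrophage library, while within each cell type the genotypes overlapped. In WT, 31.3% of the genes tested were lower in macrophages without overlap. The levels were 192 ± 39.5 CPM in WT MECs (n = 2), 233 ± 108 in CebpbΔM MECs (n = 2), 20.4 ± 4.93 in WT macrophages (n = 2) and 22.7 ± 12.6 in CebpbΔM macrophages (n = 4). In this order the MEC groups did not differ from each other beyond their spread, nor did the macrophage groups.

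Sprr2a3, an Sprr2 precursor, varied much more. Its counts were 263 and 206 in WT MECs and 1012 and 1491 in CebpbΔM MECs. In macrophages they were 666 and 192 in WT and 344, 972, 8 and 249 in CebpbΔM. In MECs both CebpbΔM libraries stood above both WT libraries. In macrophages the genotypes overlapped, as they did in all but 18.5% of the genes tested there. The levels were 49.5 ± 11.9 CPM in CebpbΔM MECs, 21.3 ± 17.2 in WT macrophages, 20.1 ± 19.7 in CebpbΔM macrophages and 9.50 ± 1.61 in WT MECs. The macrophage groups are neighbours in this order and overlapped each other and WT MECs. Among the 4 CebpbΔM macrophage libraries the highest level was 109-fold above the lowest, replicate 6, which was at 0.434 CPM. That library was also the lowest of the 4 for Sprr1a, at 12.3 CPM.

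**Figure D2:**
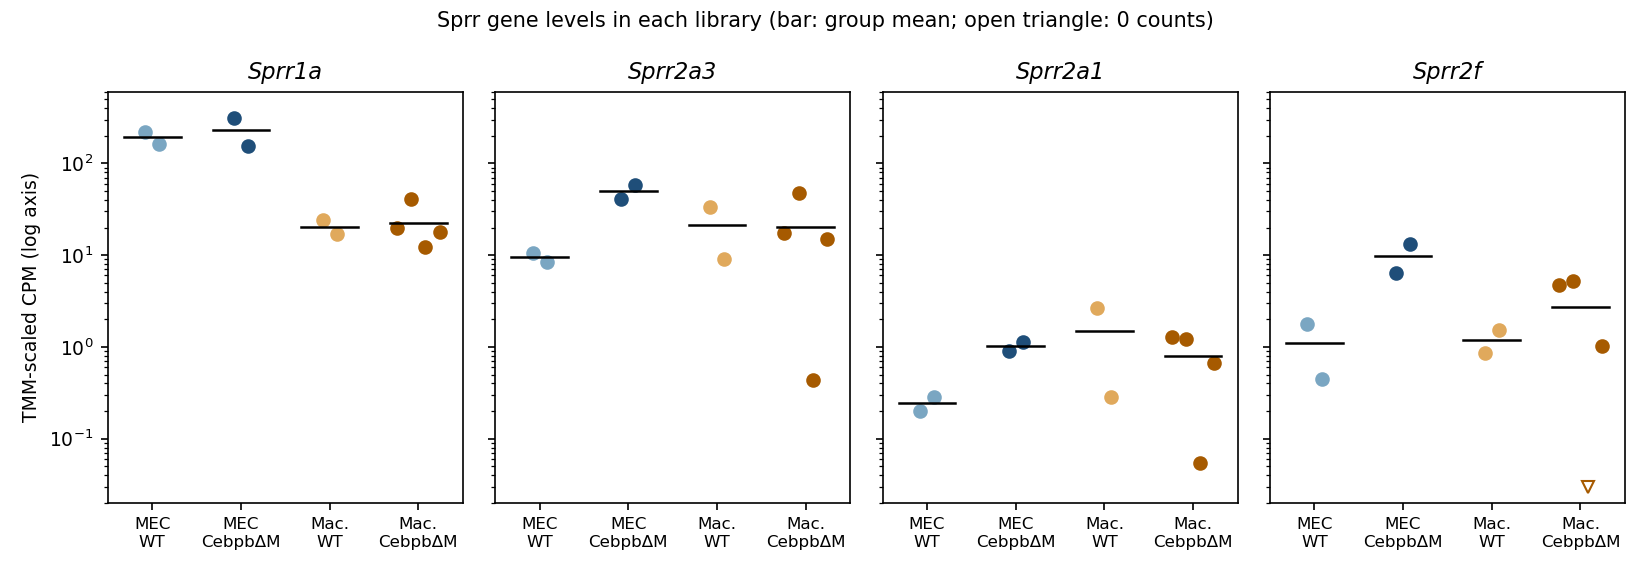
TMM-scaled CPM on a log axis for Sprr1a, Sprr2a3, Sprr2a1 and Sprr2f in the MEC and macrophage libraries of each genotype, with 1 point per library, a bar at the group mean and an open triangle for 0 counts. Sprr1a lies above 150 CPM in each MEC library and below 41 CPM in each macrophage library, and Sprr2a3 is lowest at 0.434 CPM in CebpbΔM macrophage replicate 6.

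The 2 near copies of Sprr2a3 followed at low counts. Sprr2a1 had 5 and 7 counts in WT MECs, 22 and 29 in CebpbΔM MECs, 53 and 6 in WT macrophages and 25, 25, 1 and 11 in CebpbΔM macrophages. Sprr2a2 had 0 and 4 counts in WT MECs, 3 and 0 in CebpbΔM MECs, 14 and 0 in WT macrophages and 1, 6, 0 and 2 in CebpbΔM macrophages. Sprr2a1 was thus higher in CebpbΔM than in WT MECs without overlap, and Sprr2a2 stayed at or near the floor outside 1 macrophage library, WT replicate 4. For each 100 counts on Sprr2a3 there were between 1.90 and 3.4 on Sprr2a1 in MECs. In macrophages the range was 2.57 to 12.5, and the highest value rests on 1 count in CebpbΔM replicate 6. Summed over the 3 copies, the level was 9.83 ± 1.43 CPM in WT and 50.6 ± 11.9 CPM in CebpbΔM MECs, and 23.1 ± 19.3 CPM in WT and 21 ± 20.2 CPM in CebpbΔM macrophages.

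The remaining members were at or near the floor. Sprr2b had 1 and 0 counts in WT MECs, 7 and 11 in CebpbΔM MECs, and 7 in CebpbΔM macrophage replicate 5, with 0 in the other macrophage libraries. Sprr2h had 0 and 0 counts in WT MECs, 1 and 3 in CebpbΔM MECs, and 3 in the same macrophage library, with 0 in the other macrophage libraries. Sprr1b, the other Sprr1 gene, had 4 and 0 counts in WT MECs, 1 and 3 in CebpbΔM MECs and 0 in the 6 macrophage libraries. Sprr2b was the only one of these 3 that passed the floor in both CebpbΔM MEC libraries.

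Of the 8 Sprr genes that are not members, Sprr2f had 819 counts in all and Sprr2g had 32. Sprr2f had 44 and 11 counts in WT MECs, 158 and 341 in CebpbΔM MECs, 17 and 32 in WT macrophages and 93, 106, 0 and 17 in CebpbΔM macrophages. Its levels were 1.11 ± 0.943, 9.83 ± 4.82, 1.19 ± 0.474 and 2.73 ± 2.60 CPM in the same order. Sprr2g had 3 and 1 counts in WT MECs, 23 and 5 in CebpbΔM MECs and 0 in macrophages. Sprr2e and Sprr2i had 1 count each, and Sprr2c-ps, Sprr2j-ps, Sprr2k and Sprr4 had 0. Sprr2f, Sprr2g, Sprr2a1, Sprr2a3 and Sprr2b lay higher in CebpbΔM than in WT MECs without overlap, and Sprr2h was at or under the floor in all 4 MEC libraries. Among the 15698 genes that passed the filter on low counts in MECs, 13.6% were higher in CebpbΔM without overlap. Of the 5 genes, only Sprr2f and Sprr2a3 were among those 15698, so the share is no measure for the other 3. The split of reads between the near copies Sprr2a1 and Sprr2a3 is uncertain, so they do not count as separate results. Sprr2g and Sprr2b were at or under the floor in the WT MEC libraries.

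Per kilobase of exon, the scale on which genes can be compared, Sprr1a stood above the Sprr2 genes when the full exon length was used. In WT MECs its level was 238 ± 49.0 CPM per kb, against 3.30 ± 0.557 for Sprr2a3 and 1.83 ± 1.55 for Sprr2f. In CebpbΔM MECs the levels were 289 ± 134, 17.2 ± 4.11 and 16.1 ± 7.92 CPM per kb, so Sprr2a3 and Sprr2f lay within each other's spread. In WT macrophages they were 25.3 ± 6.12, 7.38 ± 5.95 and 1.95 ± 0.779 CPM per kb. The table's length for Sprr2a3 is 2883 nt, which covers a long and a short transcript of 2880 and 682 nt, and per-kb values depend on which is used. With the short transcript the values of Sprr2a3 would be higher. Its place beside Sprr2f in MECs and beside Sprr1a in macrophages is therefore not fixed.

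The split of the members' counts between the 2 main genes varied from library to library. Sprr1a held 95.2% and 94.9% of the members' counts in the WT MEC libraries and 87.9% and 72.4% in the CebpbΔM MEC libraries. In macrophages it held 39.4% and 64.2% in WT and 51.1%, 45.3%, 96.2% and 53.0% in CebpbΔM. For each 100 counts on Sprr1a there were 4.84 and 5.10 on Sprr2a3 in WT MECs and 13.3 and 37.0 in CebpbΔM MECs. In macrophages there were 140 and 54.1 in WT and 88.9, 116, 3.54 and 84.1 in CebpbΔM. The ratio was higher in 5 of the 6 macrophage libraries than in any MEC library, and the exception was CebpbΔM replicate 6. Summed over the 9 genes, the level was 202 ± 41.1 CPM in WT and 284 ± 95.7 in CebpbΔM MECs, and 43.5 ± 24.3 in WT and 43.8 ± 32.9 in CebpbΔM macrophages.

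**Figure D3:**
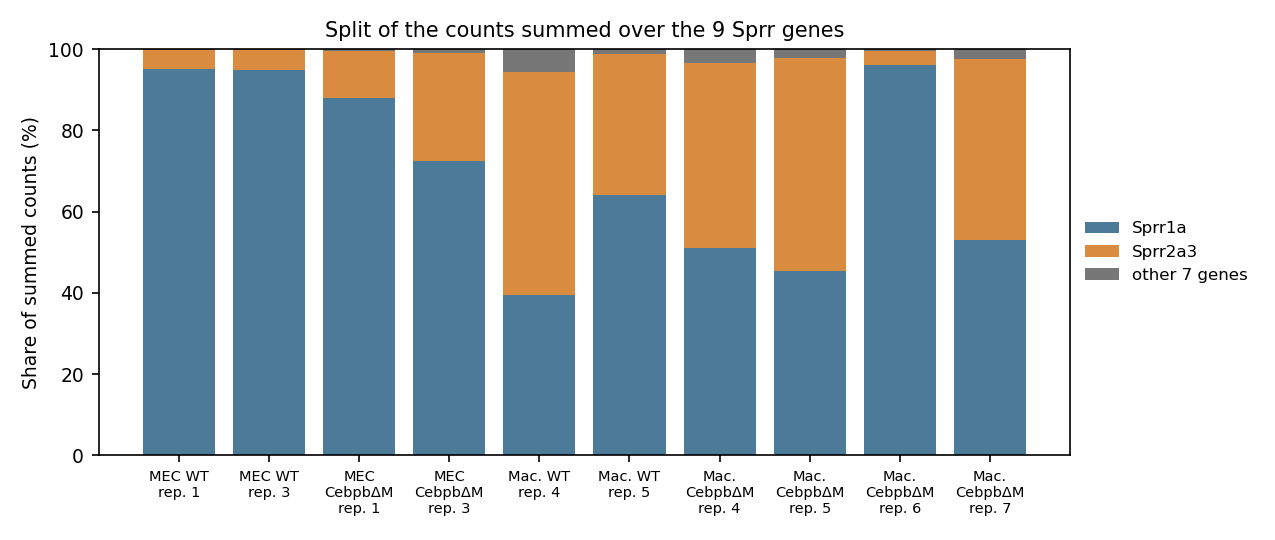
Percent of the counts summed over the 9 genes that lay on Sprr1a, on Sprr2a3 and on the other 7 genes, with 1 bar per library. Sprr1a takes 95.2% and 94.9% in WT MECs and between 39.4% and 64.2% in the macrophage libraries other than CebpbΔM replicate 6, where it takes 96.2%.

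In the genotype comparison of MECs, the log2 fold change, CebpbΔM against WT, was 2.41 (SE 0.26) for Sprr2a3, or 5.30-fold. For Sprr1a it was 0.29 (SE 0.29), or 1.22-fold. Sprr2f had a log2 fold change of 3.17 (SE 0.55), or 9.0-fold, and with 1 library left out the log2 value ran from 2.52 to 4.46, the highest without WT replicate 1. Of the 9 genes, 2 passed the filter of at least 300 nt and over 1 CPM in at least 2 libraries, and the other 7 have no fitted value. Of the 15698 genes tested in MECs, 8 (0.0510%) passed the QL test at a Benjamini–Hochberg adjusted P of 0.05, and 7 of those (0.0446% of the genes tested) were higher in CebpbΔM. Since the genes were listed with this contrast known, no test result is given for them in it. Counting the 3 copies as 1 feature gave a log2 fold change of 2.39. Sprr2a3 made up between 94.9% and 98.1% of that sum in the MEC libraries, so the value had to lie near 2.41. It does not check the split of reads between the copies.

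In macrophages the QL test gave no called gene in the same comparison, in the family or elsewhere. The log2 fold change was −0.10 (SE 1.15, adjusted P = 0.991, edgeR QL test) for Sprr2a3, with a 95% interval of −2.73 to 2.53. It was 0.13 (SE 0.45, adjusted P = 0.968) for Sprr1a, with an interval of −0.90 to 1.16. Sprr2a1, which passed the filter here, had a value of −0.89 (SE 1.19, adjusted P = 0.888). Sprr2f had 1.18 (SE 1.34, adjusted P = 0.876). The QL test called 0 of 17772 genes (0%), with 1534 at an unadjusted P under 0.05, whereas the likelihood ratio test called 138 and DESeq2 called 201, none of them these 4 genes. The interval of Sprr2a3 ran from 6.66-fold lower to 5.77-fold higher, so it held the 5.30-fold difference of MECs as well as no difference. Without CebpbΔM replicate 6 the log2 fold change of Sprr2a3 was 0.30, and without WT replicate 4 it was 1.11.

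The difference between the genotype effects, macrophages minus MECs, was −2.46 (SE 1.51) on the log2 scale for Sprr2a3, −1.93 (SE 1.73) for Sprr2f, −2.89 (SE 1.63) for Sprr2a1 and −0.12 (SE 0.65) for Sprr1a. With 1 library left out it ran from −3.37 to −1.27 for Sprr2a3 (−1.27 without WT macrophage replicate 4), from −3.24 to −1.26 for Sprr2f (without WT MEC replicates 1 and 3) and from −3.78 to −0.58 for Sprr2a1 (−0.58 without WT macrophage replicate 4). It contains the MEC contrast and is therefore given as a description. Over all 10 libraries the QL test called 0 of 18323 genes (0%) for this difference, with 951 at an unadjusted P under 0.05, and the likelihood ratio test called 53 and DESeq2 27.

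Between the cell types in WT, Sprr1a was lower in macrophages than in MECs, with a log2 difference of −3.24 (SE 0.49, adjusted P = 0.00127, edgeR QL test). This is 9.42-fold lower, with an interval of 4.46 to 19.9. Sprr2a3 had a log2 difference of 1.16 (SE 1.15, adjusted P = 0.503), Sprr2a1 of 2.57 (SE 1.26, adjusted P = 0.169) and Sprr2f of 0.09 (SE 1.34, adjusted P = 0.970), none past the threshold. Without WT macrophage replicate 4 the difference of Sprr2a3 was −0.012 and that of Sprr2a1 was 0.27. Thus 1 of the 3 members tested passed, against 25.5% of the 18323 genes tested. The cell types were isolated by different methods and counted in separate tables, which cannot be told apart from cell type.

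The epithelial markers of the macrophage libraries stand beside these differences. The pan-epithelial sum in WT macrophages was 0.297 of that in WT MECs, and Sprr1a was at 0.106, Sprr2f at 1.07 and Sprr2a3 at 2.24 of its WT MEC level. For each 1000 CPM of pan-epithelial markers, Sprr2a3 stood at 0.339 and 0.217 CPM in WT MECs and at 1.09 and 1.87 in CebpbΔM MECs. In macrophages it stood at 3.20 and 0.887 CPM in WT and at 2.59, 8.32, 0.0787 and 2.13 in CebpbΔM. On this scale Sprr2a3 was above WT MECs in 5 of 6 macrophage libraries. Sprr1a stood at 7.01 and 4.26 CPM in WT MECs, 8.16 and 5.05 in CebpbΔM MECs, 2.29 and 1.64 in WT macrophages and 2.91, 7.19, 2.22 and 2.53 in CebpbΔM macrophages. The part of the epithelial transcripts in the macrophage values was not tested.

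**Figure D4:**
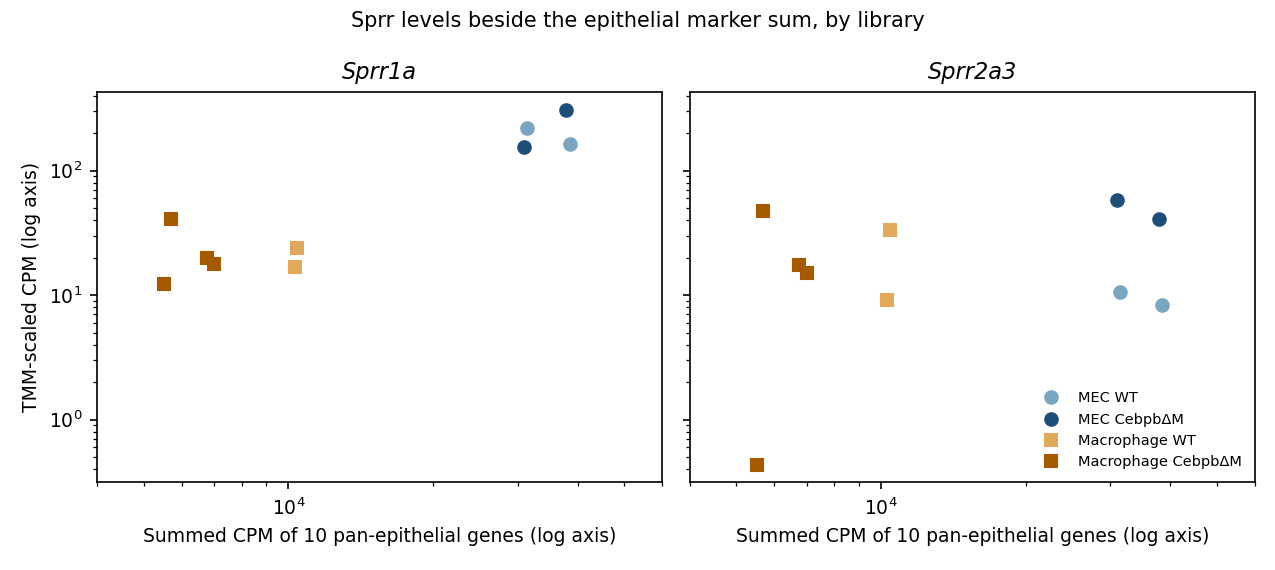
TMM-scaled CPM of Sprr1a and Sprr2a3 in each library against the summed CPM of 10 pan-epithelial genes, both on log axes, by cell type and genotype. The macrophage libraries sit between 5520 and 10430 CPM of markers and spread from 0.434 to 47.3 CPM in Sprr2a3, while the MEC libraries sit between 30975 and 38506.

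Within MECs the summed markers of the ductal layers overlapped between the genotypes, but some single markers did not. Prom1, Kit, Ly6a and Oxtr lay lower and Lgr5 higher in CebpbΔM without overlap. Of the pan-epithelial markers, Epcam lay higher and Cdh1, Krt19 and Krt7 lower without overlap. Prom1 stood at 284 and 264 CPM in WT and at 72.8 and 135 in CebpbΔM, and Lgr5 at 13.3 and 14.9 and at 17.9 and 16.7. Among all genes tested in MECs, 13.6% were higher without overlap, and the share that was lower is not given here. The part of cell composition in the Sprr values was not tested. Luminal progenitor markers summed to 4091 and 4655 CPM in WT and to 5988 and 2635 CPM in CebpbΔM, and basal markers to 6730 and 5444 CPM in WT and to 6222 and 5043 CPM in CebpbΔM. Hormone-sensing luminal markers summed to 3815 and 4514 CPM in WT and to 4121 and 4241 CPM in CebpbΔM. The QL test called 0 of 10 genes of each of these lists and of the pan-epithelial list in MECs, with 1, 0, 1 and 1 genes at an unadjusted P under 0.05. The likelihood ratio test and DESeq2 each called 1, the hormone-sensing marker Prom1. Keratinocyte markers, from cells that cornify, summed to between 4.18 and 7.24 CPM in MECs and between 1.95 and 3.11 CPM in macrophages. Krt2 and Casp14 were at 0 in all 10 libraries, and Flg, the gene of filaggrin, and Dsc1 were at 0 in all but WT MEC replicate 3. Krt10 made up much of the sum, with 68 to 116 counts in the MEC libraries and 28 to 50 in the macrophage libraries. Klk7, a protease of the cornified layer, had 24 to 85 counts in the MEC libraries and 0 to 10 in the macrophage libraries.

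The RNA of other genes of the cornified envelope, transglutaminases among them, was read as a list of 26 envelope genes, of which 10 passed the filter in MECs. None of the 10 passed the QL test between the MEC genotypes, with 1 at an unadjusted P under 0.05 and 0 called by the likelihood ratio test or DESeq2. Their median log2 fold change was −0.08, beside −0.01 over all genes tested. Krt17, Krt6a, Cstb and Tgm1 had the highest levels in MECs. The stress keratin Krt17 stood at 1528 ± 51.6 CPM in WT and 1767 ± 187 in CebpbΔM, and its partner Krt6a at 595 ± 14.5 and 594 ± 71.4 CPM. The cysteine protease inhibitor Cstb stood at 329 ± 20.6 and 313 ± 67.2 CPM. Tgm1, the transglutaminase of the envelope, stood at 127 ± 13.8 and 91.7 ± 9.57 CPM, with a log2 fold change of −0.45 (SE 0.21, adjusted P = 0.948, edgeR QL test). Ivl, the gene of the envelope protein involucrin, had 7 and 2 counts in WT MECs and 4 and 18 in CebpbΔM MECs.

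In macrophages 0 of 11 tested envelope genes passed between the genotypes by the QL test, by the likelihood ratio test or by DESeq2, with 0 at an unadjusted P under 0.05. Between the cell types in WT, 9 of 11 were lower in macrophages, against 10.7% of all genes tested, as Sprr1a was. The median log2 difference of the 11 was −2.16, beside 0.06 over all genes. Of the 10 pan-epithelial markers 9 were lower as well, with a median of −1.77, so this was not particular to envelope genes. The 5 with the smallest P were Cstb at −2.21, Tgm1 at −2.16, the plakin Ppl at −1.75, Krt16 at −5.98 and Krt17 at −4.33 on the log2 scale, with adjusted P from 8.77e-05 to 0.00407 (edgeR QL test).

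Of 20 transcription factors named with squamous genes, 0 were called between the MEC genotypes by the QL test, the likelihood ratio test or DESeq2. By the QL test 3 of the 20 were at an unadjusted P under 0.05, beside 5.42% of all genes tested. Fos, Jun and Junb, subunits of AP-1, and Fosl1 had the highest levels in MECs. Fos stood at 8259 ± 637 CPM in WT and 7874 ± 1406 in CebpbΔM, Jun at 2348 ± 756 and 3322 ± 738, Junb at 2310 ± 39.1 and 2178 ± 516, and Fosl1 at 529 ± 87.0 and 598 ± 262. The genotypes overlapped in all 4 of these. Of the other factors, Klf5, Jund and Cebpb lay higher in CebpbΔM MECs without overlap, and Ehf lower. Klf5 stood at 137 ± 17.6 CPM in WT and 201 ± 28.3 in CebpbΔM, and Ehf at 130 ± 12.8 and 79.7 ± 11.5. Cebpb was sparse, at 1.07 ± 0.0891 and 2.22 ± 0.830 CPM. Among all genes tested in MECs, 13.6% were higher without overlap, and the share that was lower is not given here. In macrophages 0 of 19 passed by any of the 3 tests, with 2 at an unadjusted P under 0.05. Between the cell types in WT, 6 of 20 were lower in macrophages and 1 was higher, beside 10.7% and 14.8% of all genes tested. The lower genes included Elf3 at −2.18, Fosl1 at −2.80, Klf5 at −2.06 and Ovol1 at −1.31, and the higher gene was Cebpa at 1.37 on the log2 scale, with adjusted P from 0.000269 to 0.0209 (edgeR QL test). Pou2f3, whose product binds the octamer, had 0 and 0 counts in WT macrophages and 50 and 72 in WT MECs. In CebpbΔM it had 48, 31, 0 and 6 counts in macrophages and 83 and 63 in MECs.

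The cytokines of the interleukin 6 family signal through Il6st to STAT3, and Sprr genes are known targets of that pathway in some epithelia. Of the 10 genes listed, 9 were tested in MECs, and 0 were called by the QL test, the likelihood ratio test or DESeq2. By the QL test 3 of the 9 were at an unadjusted P under 0.05, beside 5.42% of all genes tested. Il6ra and Il11 lay higher and Lif, Lifr and Stat3 lower in CebpbΔM than in WT MECs without overlap. Of all genes tested in MECs, 13.6% were higher without overlap, and the share that was lower is not given here. Nothing is therefore read from these genes as a group. Il6ra stood at 48.2 ± 6.33 CPM in WT and 82.7 ± 5.17 in CebpbΔM MECs, and Lifr at 170 ± 17.4 and 120 ± 16.4. Stat3 stood at 1224 ± 99.5 CPM in WT MECs and 1074 ± 53.9 in CebpbΔM MECs, and its feedback target Socs3 at 637 ± 4.46 and 621 ± 60.7. The receptor chains Osmr and Il6st stood at 290 ± 33.0 and 220 ± 22.8 CPM in WT and at 209 ± 103 and 200 ± 107 in CebpbΔM MECs. In macrophages 0 of 10 passed by any of the 3 tests, with 0 at an unadjusted P under 0.05. Between the cell types in WT, Osm, Il6ra, Il6st and Lifr were higher in macrophages, by 8.55, 1.14, 1.64 and 1.06 on the log2 scale. Lif and Il11 were lower, at −2.17 and −3.53, with adjusted P over the 6 genes from 3.09e-06 to 0.0361 (edgeR QL test).

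The 5 genes with the pattern nearest to the summed Sprr2a copies were sought among 18319 genes, as the smallest Euclidean distance between centred log2 CPM over the 10 libraries. They were Ptprv (distance 2.37), Tarsl2 (2.60), Ninl (2.80), Kcnip3 (2.96) and Chrd (3.0), beside a distance of 5.84 for a flat pattern. Each of them had between 0 and 3 counts in CebpbΔM macrophage replicate 6. Kcnip3, for example, had 247 and 44 counts in WT macrophages and 127, 187, 0 and 83 in CebpbΔM macrophages. Between the MEC genotypes the log2 fold changes of the 5 genes lay between 0.12 and 1.26, all below that of Sprr2a3. Sprr2f had a distance of 3.06, with 5 genes nearer, and Sprr1a one of 6.08, with 9241 genes nearer.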

How the data were processed

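RNA of 4 MEC and 6 macrophage libraries was sequenced as low-input libraries with paired-end reads. The authors trimmed reads with Trimmomatic, aligned them to GRCm38 with HISAT2 and counted pairs on Ensembl release 100 genes with featureCounts (version 1.6.2), under its reverse strand setting, keeping pairs with both ends aligned and a mapping quality no lower than 10. What they deposited are unnormalized counts, in whole numbers for each gene. The header of the MEC counts also names a WT and a CebpbΔM library numbered 2, which were not analysed here. Symbols came from GENCODE release M21 for 55141 of 55487 genes.

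Genes of at least 300 nt and above 1 CPM in at least 2 libraries were fitted with edgeR (version 4.0.16, R version 4.3.3), TMM and the QL test, with Benjamini–Hochberg adjustment over all genes tested at 0.05. MECs and macrophages were fitted separately, and the cell type and interaction contrasts over all 10 libraries. Intervals are at 95%, and the log2 CPM used a prior count of 2. The authors used the likelihood ratio test of edgeR, which was run as an alternative. The other alternatives were DESeq2 (version 1.42.0), relative log expression (RLE) normalization, no low-count filter, the replicate block, only WT libraries, CPM by library total and each library left out. Only replicates 4 and 5, and the Sprr2a copies as 1 feature, were added after the data were seen. The tests were checked on simulated counts. Sequences were handled in Python (version 3.11.15) and plots drawn with matplotlib (version 3.10.9).

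The members, gene lists and alternatives were chosen with earlier results of these data known. Named were the 9 members, the other Sprr genes, Cebpb, of each list the genes past the threshold (at most 5 by P in each direction) and the 4 highest in MECs, and the 5 genes nearest in pattern. Other genes were named after their values were seen.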

Additional observations from a re-analysis of the deposited data

Results flagged for a closer look

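In CebpbΔM macrophages, 7 Sprr genes were checked for a library that stands far from the other 3 by its gap to them (Dixon's criterion at the 95% level). The usual rate of about 1 in 20 groups by chance does not hold for the 2 genes below: with 3 libraries at 0, any count above 0 in the fourth passes. Sprr2b was at 0.341 CPM in replicate 5 and at 0 in the other libraries of the group, on 7 counts. Sprr2h was at 0.146 CPM in the same library and at 0 in the others, on 3 counts, which is the floor. That library was also the highest of the group for Sprr1a, Sprr2a3 and Sprr2f.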

How the results depend on the processing

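In MECs the 8 calls became 179 with the likelihood ratio test, 161 with DESeq2, 67 without the low-count filter, 205 with the replicate block and between 2 and 337 with a library left out (98 without WT replicate 1, 2 without WT replicate 3, 42 without CebpbΔM replicate 1, 337 without CebpbΔM replicate 3), and a left-out group's remaining library was assumed to vary like the others. With a library left out, the log2 fold change in MECs ran from 2.11 to 2.65 for Sprr2a3 and from 2.52 to 4.46 for Sprr2f. In macrophages the 0 calls became 138, 201 and 12 with the likelihood ratio test, DESeq2 and the replicate block, and stayed at 0 with any library left out. For the interaction they became 53 and 27 with the likelihood ratio test and DESeq2, 1 with the replicate block and between 0 and 1 with a library left out (1 without WT MEC replicate 3). The 4664 calls between cell types in WT ranged from 2456 to 4846 with a library left out (2733 and 2456 without WT MEC replicates 1 and 3, 3041 without WT macrophage replicate 5). Sprr1a kept its call there under all 15 alternatives, with log2 differences from −3.46 to −2.96. Same-numbered libraries deviated together weakly in MECs (r = 0.105) and in 1 of 2 macrophage pairs (r = 0.127 and −0.0861), so the numbers were not taken as pairs and the replicate block is given here only.

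In macrophages the direction of the uncalled members was not fixed. With the replicate block Sprr2a1 was at 0.40 and Sprr2a3 at 0.69, and with only replicates 4 and 5 Sprr2a3 was at 0.59. With a library left out, Sprr2a3 ranged from −0.98 to 1.11 (1.11 without WT replicate 4, 0.30 without CebpbΔM replicate 6), Sprr2a1 from −1.74 to 1.45 and Sprr1a from −0.32 to 0.40. Between cell types Sprr2a3 ranged from −0.012 to 1.86 and Sprr2f from −0.58 to 1.4. The cause was not tested. In MECs, Sprr1a was at −0.25 without CebpbΔM replicate 1. With 2 libraries a group in 3 of 4 groups and Sprr2a1, Sprr2a2, Sprr2b, Sprr2h and Sprr1b near the floor, small differences were not detectable. In macrophages large differences of Sprr2a3 were not detectable either, since its interval ran from 6.66-fold lower to 5.77-fold higher.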
